A study of Mus musculus with 15 samples.

Results

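The genes described here are 10 feedback targets of the ERK pathway, followed in mouse pancreatic duct organoids in which doxycycline can switch on the glycan CA19-9. They were chosen by name: the ERK phosphatases Dusp4, Dusp5 and Dusp6, the Sprouty and Spred inhibitors Spry1, Spry2, Spry4 and Spred1, the ETS factors Etv4 and Etv5, and Phlda1. The list was chosen with earlier results of these data known. All 10 passed the expression filter and are among the 16462 features tested, out of 34554 in the files.

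Organoids from normal ducts were grown in Matrigel. CA19-9 inducible lines (A217, A220 and A225, n = 3) carried every allele needed to make the glycan, and genetic negative lines (A218 and A223, n = 2) lacked one of those alleles; the labels do not say which allele, nor how many animals the lines came from. Each line gave 1 library without doxycycline (0 h), 1 after 4 h and 1 after 24 h of doxycycline at 1 µg/ml, so that there were 15 libraries in 6 groups. Negative lines received doxycycline as well. The medium of all groups held EGF and FGF-10, whose receptors signal through RAS and ERK, and an inhibitor of TGF-β receptors; it was renewed 24 h before a common harvest.

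In the ERK pathway a ligand-bound receptor tyrosine kinase activates RAS, which starts the RAF, MEK and ERK kinase cascade. Active ERK induces genes whose products damp the same pathway: dual-specificity phosphatases (DUSPs) remove the activating phosphates from ERK and related kinases, and Sprouty and Spred proteins act upstream, between the receptor and RAF. Etv4 and Etv5 encode transcription factors of the PEA3 group that carry ERK output, mostly downstream of FGF receptors. Because their transcripts turn over quickly, these genes are widely read as a gauge of recent ERK activity. In the pancreas the pathway is best known for its part in ductal cancer.

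Promoter sequence was given in the RefSeq table (GRCm38.p6) for 6 of the 10 genes, Dusp5, Dusp6, Spry1, Spry2, Spred1 and Etv5 (7 windows, since Etv5 has more than one start). Shown are the 250 bases before the start of the 4 genes called between 24 h and 0 h over both genotypes in edgeR with the organoid line as a block, each read 5′ to 3′ on the gene's strand, with motif matches in capitals.
Dusp5, chr19:53528895-53529144, plus strand: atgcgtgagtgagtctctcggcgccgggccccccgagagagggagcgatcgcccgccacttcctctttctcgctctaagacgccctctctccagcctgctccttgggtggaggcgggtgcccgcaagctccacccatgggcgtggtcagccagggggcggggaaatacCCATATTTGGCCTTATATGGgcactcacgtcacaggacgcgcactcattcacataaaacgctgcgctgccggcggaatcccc
Dusp6, chr10:99262981-99263230, plus strand: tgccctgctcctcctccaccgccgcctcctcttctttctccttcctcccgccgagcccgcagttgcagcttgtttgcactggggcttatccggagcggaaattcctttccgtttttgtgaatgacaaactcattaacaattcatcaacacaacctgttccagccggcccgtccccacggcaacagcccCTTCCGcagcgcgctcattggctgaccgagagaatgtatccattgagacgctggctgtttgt
Spry2, chr14:105896820-105897069, minus strand: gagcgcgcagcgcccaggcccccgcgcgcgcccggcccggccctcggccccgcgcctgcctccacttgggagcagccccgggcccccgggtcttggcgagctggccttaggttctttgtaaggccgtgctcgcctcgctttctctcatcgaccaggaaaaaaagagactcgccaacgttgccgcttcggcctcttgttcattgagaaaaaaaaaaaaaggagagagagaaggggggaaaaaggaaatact
Spred1, chr2:117120821-117121070, plus strand: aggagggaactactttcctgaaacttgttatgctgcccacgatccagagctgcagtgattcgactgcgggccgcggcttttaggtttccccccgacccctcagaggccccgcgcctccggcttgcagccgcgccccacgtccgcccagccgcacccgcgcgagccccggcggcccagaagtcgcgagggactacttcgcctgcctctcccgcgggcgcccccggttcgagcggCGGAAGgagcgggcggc
The capitals in Dusp5 mark a pair of adjacent CArG boxes, the motif of serum response factor (SRF), starting 82 and 72 bases before the start; CArG boxes were found in 1.63% of all 32851 windows of 300 bases (250 before to 50 after a start). In Dusp6 and Spred1 they mark the ETS core CGGAAG on either strand, the motif shared by ETS factors, starting 62 bases and 17 bases before the start. Spred1 has another match within the 50 bases after its start, and 16.9% of all windows hold this core. The longer ETS site CCGGAAGT, which contains the core and is present in 3.89% of windows, the AP-1 site TGACTCA (5.2%) and the CRE site TGACGTCA (1.79%) were searched on both strands too. None of these motifs matched in the windows of Spry1, Spry2 or Etv5. These matches describe the letters of the windows only.

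The libraries held between 47915632 and 59411540 estimated counts. EGFP, which is among the sequences added to the transcriptome, was at 259 to 385 counts per 1000000 (CPM) in inducible lines at 4 h and 24 h, at 0.341 to 0.737 CPM in those lines at 0 h and at 0.0964 to 0.345 CPM in negative lines. Of 12 duct epithelium markers 11 reached a level of 1 TPM (transcripts per 1000000), among them Krt19 at 1620 to 2410 TPM; Cftr stayed between 0.233 and 0.914 TPM. Markers of acinar cells summed to 2.21 to 3.55 TPM per library (1 of 10 reached 1 TPM, with Cpa1 and Ptf1a at 0), islet markers to 0.198 to 0.814 TPM (0 of 10, with Ins1, Ins2, Gcg and Ppy at 0) and fibroblast, endothelial and blood cell markers to 5.23 to 7.59 TPM (2 of 13, Pecam1 and Cd68, with Adgre1 at 0). The summed duct markers were higher at 24 h than at 0 h, at 13800 to 15800 against 10500 to 13100 TPM in inducible and 15700 to 16400 against 11700 to 11800 TPM in negative lines. Their part in the 24 h results below was not tested, and in these bulk samples fewer cells of a type and less RNA per cell cannot be told apart.

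All 10 feedback genes were expressed in every library. On the deposited TPM scale, which takes transcript length into account, Dusp6 was the most abundant at 112 ± 15.3 TPM (mean ± SD over 15 libraries), followed by Spry2 at 57.3 ± 6.06, Spred1 at 33.4 ± 3.27 and Dusp5 at 27.0 ± 5.18 TPM. Etv4 (22.1 ± 2.25 TPM) and Dusp4 (20.7 ± 2.29 TPM) came next, then Phlda1 (16.6 ± 1.52 TPM), Spry1 (13.5 ± 1.14 TPM) and Etv5 (12.5 ± 1.55 TPM). Spry4 was lowest by far, at 2.22 ± 0.371 TPM. Dusp6 thus stood at the 91.0th percentile of the tested features and Spry4 at the 32.4th. The ranges over libraries were separate for Dusp6 and Spry2, for Spry2 and Spred1, and for Etv5 and Spry4; every other pair of neighbours in this order overlapped. Within libraries the order of neighbours was mostly kept: Spred1 exceeded Dusp5 and Dusp4 exceeded Phlda1 in 15 of 15 libraries, whereas Etv4 exceeded Dusp4 in 10 of 15.

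**Figure D1:**
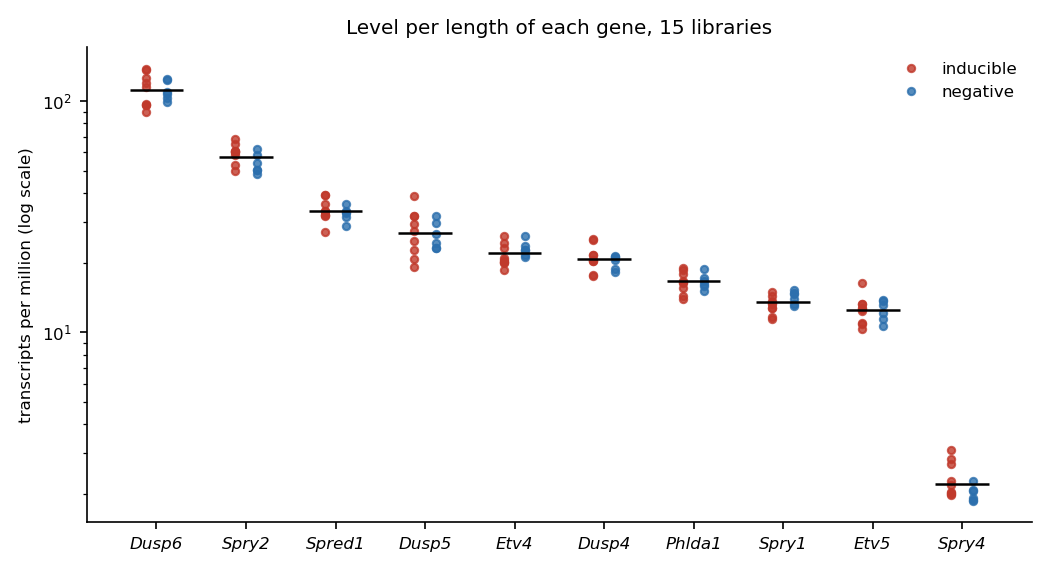
Level of each feedback gene in TPM (log axis), with 1 point per library, inducible lines in red and negative lines in blue, and a bar at the mean of the 15 libraries. Dusp6, with a mean of 112 TPM, and Spry4, with 2.22 TPM, lie apart from the other genes, and the points of the genotypes overlap for each gene.

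The lines differed in these genes. Dusp5 differed most, from a mean of 34.1 CPM over the times in A217 to 53.7 CPM in A225 (1.58-fold). Spry4 ranged from 5.97 CPM in A223 to 8.67 CPM in A225 (1.45-fold), and Dusp6 from 141 CPM in A217 to 192 CPM in A225 (1.37-fold); the other 7 genes spanned 1.15-fold to 1.28-fold. Lines A217 and A225, the lowest and the highest for Dusp5 and Dusp6, are both inducible. Since each line was sampled at every time, the line was also entered in edgeR as a replicate block, which compares the times within lines.

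Most of these genes were counted mainly through 1 transcript. Dusp4, Dusp5, Spry2 and Spry4 have a single transcript in the files, and 1 transcript held over 90% of the estimated counts of Dusp6 (90.84%), Phlda1 (92.44%), Etv5 (95.37%) and Spred1 (99.03%). Spry1 was divided among 3 transcripts, of which Spry1-201 held 70.21%. Etv4 was divided among 12, with 60.45% in Etv4-201 and 27.5% in the next; the share of Etv4-201 varied between 46.72% and 75.65% from library to library. How reads were assigned between such similar transcripts was estimated, so only sums per gene are compared below.

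Against 0 h, none of the 10 genes passed an adjusted p of 0.05 in edgeR's quasi-likelihood test without the block, in either genotype at either time. The share of all features called was 0.298% in inducible and 0.121% in negative lines at 4 h, and 4.93% and 3.8% at 24 h. At an unadjusted p under 0.05 there were 3 feedback genes in inducible lines at 4 h (Dusp4, Spry1 and Spry2), 1 at 24 h (Spred1), 0 in negative lines at 4 h and 1 at 24 h (Spry2), and DESeq2, likewise without the block, called 0 at the adjusted threshold. With the line as a block, edgeR called Dusp4 and Spry2 as lower in inducible lines at 4 h (2 of 10, against 3.05% of all features) and Dusp5 and Spred1 as higher and Dusp6 and Spry2 as lower at 24 h (4 of 10, against 24.2%). In negative lines it called Spry2 as lower at 4 h (1 of 10, against 2.04%), and at 24 h Dusp5 and Spred1 as higher and Spry2 as lower (3 of 10, against 22.5%). None of the called feedback genes changed by more than 1.26-fold.

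Because the genotypes gave similar values, the mean of both responses was also tested, a comparison added after the data were seen. At 4 h, edgeR with the block called 5 of the 10 genes (8.67% of all features), Dusp4, Dusp6, Spry1 and Spry2 as lower and Spred1 as higher; without it none passed (0.911% of features), 4 had an unadjusted p under 0.05, and limma-voom with a random block for the line called 3. At 24 h the blocked fit called 4 (36.1% of features), Dusp5 and Spred1 as higher and Dusp6 and Spry2 as lower, against 0 without the block (18.7%; unadjusted p under 0.05 in 2), 2 in DESeq2 and 3 in limma-voom. Between 4 h and 24 h it called 4 (37.0% of features), Dusp4, Dusp5 and Phlda1 as higher and Etv5 as lower at 24 h, of which Dusp4 passed without the block too (19.5%). The share of feedback genes called at 4 h was above that of all features, while at 24 h and between 4 h and 24 h it was near it. Over both genotypes limma-voom called 1033 of 16462 features at 4 h and 5585 at 24 h. DESeq2 called 3678 of 25016 features at 24 h. The genes were chosen with earlier results of these data known, so these shares are a description and not a test of the set. Of the 5 calls at 4 h, only those of Dusp4 and Spry2 held whichever line was left out. The median log2 change of the 10 genes was −0.11 at 4 h and −0.01 at 24 h, against 0.003 and 0.0 over all features, and the median size of the change was 0.15 and 0.12 against 0.09 and 0.164. All features include many of low count. Among 12609 features with 1 CPM in 3 libraries, the median size was 0.07 and 0.129 in edgeR without the block. The comparisons of 4 h and 24 h share their 0 h libraries.

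**Figure D2:**
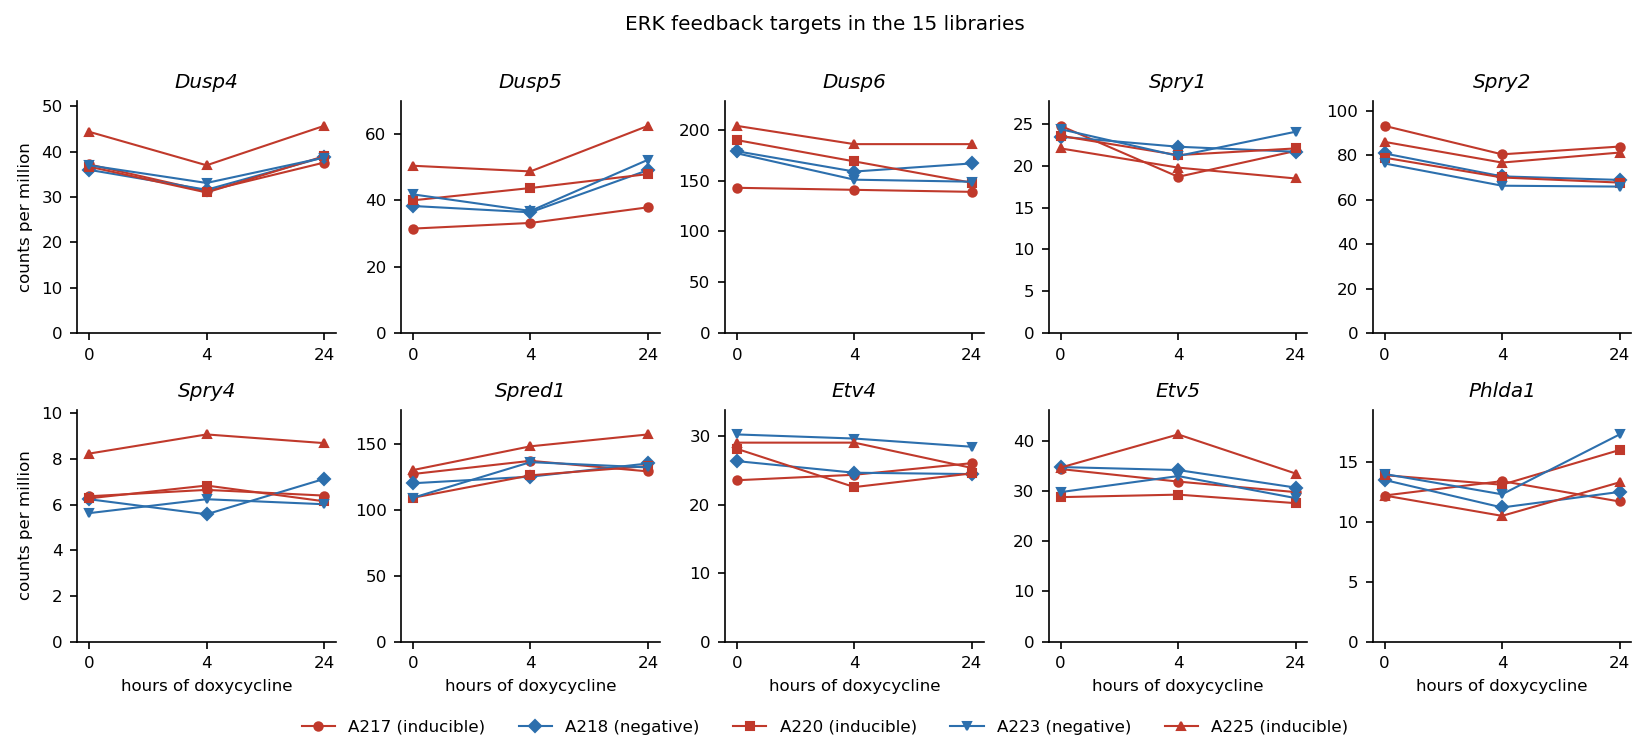
CPM of each feedback gene (vertical axes from 0) against hours of doxycycline, with 1 point per library, joined by line; inducible lines are red and negative lines blue. Dusp4 dips at 4 h in 5 of 5 lines and Dusp5 is above its 0 h value at 24 h in 5 of 5. A225 lies above the other lines at each time for Dusp4, Dusp5, Dusp6, Spry4 and Spred1.

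Among the phosphatases, Dusp4, a nuclear phosphatase of ERK and other MAP kinases, dipped at 4 h and was back at 24 h. In A217, A220 and A225 it measured 37.2, 36.7 and 44.4 CPM at 0 h, 31.3, 31.0 and 37.0 CPM at 4 h, and 37.6, 39.0 and 45.7 CPM at 24 h. In A218 and A223 it measured 36.0 and 37.0, then 31.6 and 33.1, then 38.8 and 38.7 CPM. Every line was lower at 4 h than at 0 h, by a ratio of 0.834 to 0.894, and higher at 24 h than at 4 h, by 1.17 to 1.26; the 0 h and 4 h values of different lines overlapped in inducible but not in negative lines. The 4 h change was −0.25 ± 0.04 on the log2 scale (± SE, here and for other log2 changes) in inducible lines, with an adjusted p of 0.00546 in edgeR with the block and 0.535 without it, and −0.17 ± 0.05 in negative lines (adjusted p = 0.113). Without A220 or A225 the adjusted p in inducible lines was 0.108 or 0.0611. Over both genotypes it was −0.21 ± 0.03 (adjusted p = 0.00165), and this call held without any 1 line (adjusted p 0.00613 to 0.0284). The rise from 4 h to 24 h, 1.21-fold, had an adjusted p of 2.57e-05 with the block and 0.0224 without it, and the unblocked p crossed the threshold when some single libraries were left out.

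Dusp5, a nuclear phosphatase specific for ERK, had the largest change of the 10 genes at 24 h. Inducible lines measured 31.4, 39.9 and 50.3 CPM at 0 h, 33.1, 43.6 and 48.6 CPM at 4 h, and 37.8, 47.8 and 62.3 CPM at 24 h. Negative lines measured 38.2 and 41.7, then 36.3 and 36.7, then 49.0 and 52.1 CPM. At 24 h all 5 lines were above their own 0 h value, by 19.8% to 28.2%, although the inducible lines differ so much that their 0 h and 24 h values overlap. The log2 change was 0.28 ± 0.05 in inducible lines (adjusted p = 0.00137 in edgeR with the block, 0.423 without it) and 0.34 ± 0.06 in negative lines (adjusted p = 0.00155 with the block, 0.451 without it). Both calls held with any 1 line left out, with adjusted p from 0.00273 to 0.016 in inducible and from 0.0022 to 0.0481 in negative lines. The promoter with the pair of CArG boxes shown above is that of Dusp5. Any link between those boxes and these changes was not tested.

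Dusp6, the cytoplasmic ERK phosphatase, was somewhat lower after doxycycline. Inducible lines measured 143, 190 and 204 CPM at 0 h, 141, 169 and 186 CPM at 4 h, and 139, 148 and 186 CPM at 24 h. Negative lines measured 179 and 177, then 159 and 151, then 167 and 149 CPM. Each line was below its own 0 h value at both times, by 1.49% to 14.9% at 4 h and by 2.98% to 22.0% at 24 h; A217 moved least and A220 most at 24 h. In inducible lines at 24 h the log2 change was −0.18 ± 0.05, with an adjusted p of 0.0229 in edgeR with the block and 0.479 without it. That call was lost without A220 (−0.1, adjusted p = 0.278) or A225 (adjusted p = 0.0694). In negative lines it was −0.18 ± 0.06 (adjusted p = 0.0632), and over both genotypes −0.18 ± 0.04 (adjusted p = 0.00399, and 0.0625 without A223). The 4 h change over both genotypes, −0.15 ± 0.04 (adjusted p = 0.0323), passed with every line in and without A217, and not without any other line.

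Of the Sprouty genes, whose products restrain signalling between receptor and RAF, Spry2 was lower at both times. It measured 93.1, 78.8 and 85.9 CPM in inducible lines at 0 h, 80.3, 69.9 and 76.6 CPM at 4 h, and 83.8, 67.6 and 81.1 CPM at 24 h. In negative lines the values were 80.7 and 76.2, then 70.4 and 66.2, then 68.8 and 65.8 CPM. All 5 lines lay below their 0 h value, by a narrow 10.8% to 13.7% at 4 h and by 5.64% to 14.8% at 24 h, and in negative lines the 0 h values did not overlap those at 4 h or 24 h. In edgeR with the block the 4 h log2 change was −0.18 ± 0.04 in inducible (adjusted p = 0.0217) and −0.2 ± 0.05 in negative lines (adjusted p = 0.0498); without the block the adjusted p was 0.64 and 0.823. Leaving out any inducible line ended the first call (adjusted p 0.0858 to 0.162), and leaving out any line ended the second (0.0551 to 0.447). At 24 h it was −0.15 ± 0.04 (adjusted p = 0.0121, and 0.121 without A220) and −0.22 ± 0.05 (adjusted p = 0.00496, and 0.0806 or 0.0721 without A218 or A223). Over both genotypes Spry2 fell to 0.875 of its 0 h level at 4 h and 0.879 at 24 h, and these calls held without any 1 line (adjusted p at most 0.0353).

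Spry1 was lower at 4 h in every line. It measured 24.8, 23.6 and 22.1 CPM in inducible lines at 0 h, 18.7, 21.3 and 19.8 CPM at 4 h, and 21.8, 22.1 and 18.5 CPM at 24 h. Negative lines measured 23.5 and 24.4, then 22.3 and 21.2, then 21.7 and 24.1 CPM. The 0 h and 4 h values did not overlap in either genotype. Within genotypes edgeR did not call it with the block (−0.24 ± 0.07 at 4 h in inducible lines, adjusted p = 0.0756; −0.14 ± 0.08 in negative lines, adjusted p = 0.467). Over both genotypes the 4 h change was −0.19 ± 0.05 (adjusted p = 0.041), a call that held without A225 and was lost without any other line (adjusted p 0.0714 to 0.285). At 24 h Spry1 was below its 0 h value in 5 of 5 lines, by 1.05% to 16.1%. That change, −0.12 ± 0.05 over both genotypes, did not pass (adjusted p = 0.0903 in edgeR with the block). Spry4, the low-abundance Sprouty, lay between 5.58 and 9.08 CPM (275 to 533 counts per library) and passed no test; its 24 h change over both genotypes was 0.08, with a 95% interval of −0.07 to 0.24.

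Spred1, an adaptor that brings the RAS-inactivating protein neurofibromin to the membrane, moved the other way from Spry2. It measured 127, 109 and 130 CPM in inducible lines at 0 h, 137, 126 and 148 CPM at 4 h, and 129, 133 and 157 CPM at 24 h. Negative lines measured 120 and 109, then 125 and 136, then 135 and 132 CPM. All 5 lines were higher at both times than at 0 h, by 4.13% to 24.4% at 4 h and 1.42% to 21.4% at 24 h; the groups overlapped in inducible lines and were separate in negative lines. The 24 h log2 change was 0.19 ± 0.05 in inducible (adjusted p = 0.021 in edgeR with the block, 0.223 without it) and 0.22 ± 0.07 in negative lines (adjusted p = 0.03 and 0.263). The first call was lost without A220 or A225 (adjusted p = 0.241 and 0.224), the second without any line except A217 (adjusted p 0.0596 to 0.278). Over both genotypes the 24 h rise was 1.15-fold (adjusted p = 0.00203, at most 0.0225 without any 1 line). The 4 h rise, 1.13-fold (adjusted p = 0.0223), was lost without A220, A223 or A225 (adjusted p 0.0675 to 0.312).

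Of the ETS factors, Etv4 ranged from 22.6 to 30.3 CPM over the libraries and passed no test; its change over both genotypes was −0.07 at 4 h (95% interval −0.2 to 0.05) and −0.09 at 24 h (−0.22 to 0.04) with the block. Etv5 measured 34.4, 28.8 and 34.7 CPM in inducible lines at 0 h, 31.9, 29.3 and 41.3 CPM at 4 h, and 29.8, 27.6 and 33.5 CPM at 24 h; in negative lines it measured 34.8 and 29.8, then 34.2 and 33.0, then 30.7 and 28.6 CPM. A225 at 4 h was the highest library. All 5 lines were lower at 24 h than at 4 h, by 5.98% to 18.9%, and edgeR with the block called that difference (−0.18 ± 0.05, adjusted p = 0.0136, and 0.0818 without A223; 0.228 without the block). Against 0 h, Etv5 was lower at 24 h in 5 of 5 lines, by 3.5% to 13.5%, and did not pass (adjusted p = 0.0913 over both genotypes).

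Phlda1 encodes a pleckstrin homology-like domain protein whose transcript ERK induces. In inducible lines it measured 12.2, 13.9 and 12.2 CPM at 0 h, 13.4, 13.1 and 10.5 CPM at 4 h, and 11.7, 16.0 and 13.3 CPM at 24 h. In negative lines it measured 13.5 and 14, then 11.2 and 12.3, then 12.5 and 17.3 CPM. From 4 h to 24 h it was higher in 4 of 5 lines and lower in A217, with a log2 difference of 0.24 ± 0.08 over both genotypes (adjusted p = 0.0311 in edgeR with the block, 0.147 without it). That call was lost without A220, A223 or A225 (adjusted p 0.134 to 0.29).

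**Figure D3:**
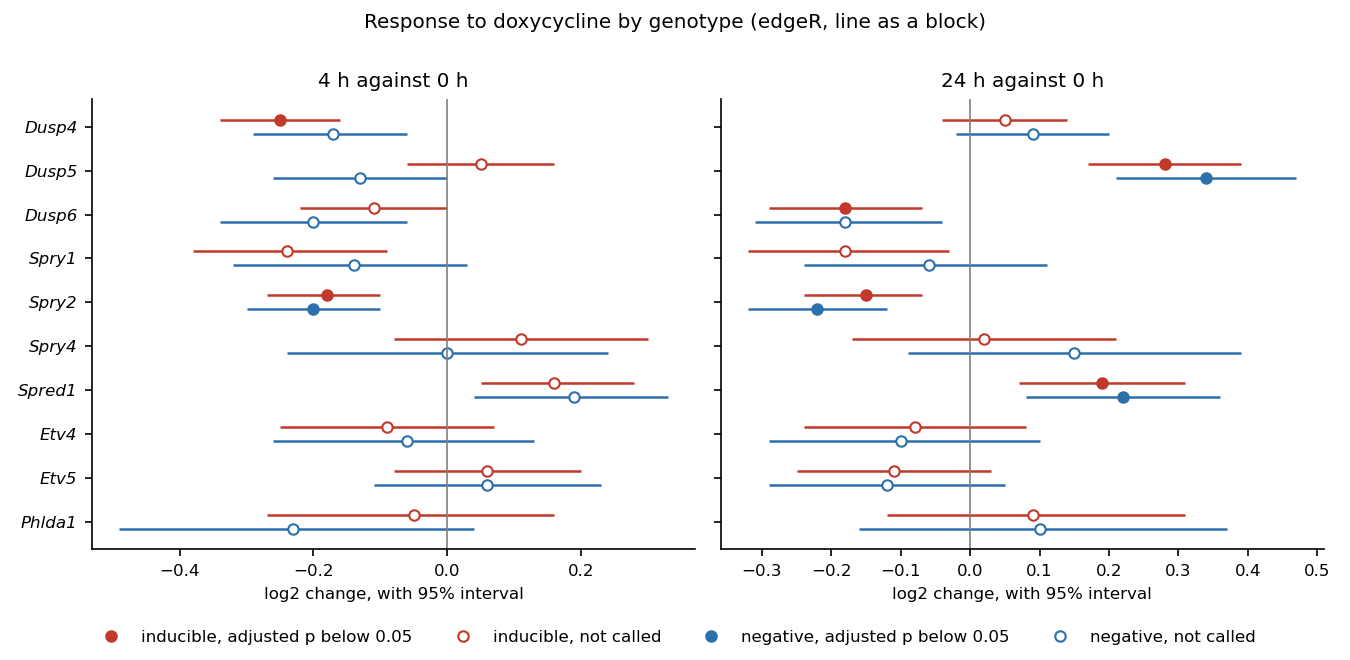
Log2 change of each feedback gene against 0 h (horizontal axes) at 4 h and 24 h, from edgeR with the line as a block, in inducible (red) and negative (blue) lines; bars are 95% intervals and filled points passed an adjusted p of 0.05. Dusp5 (0.28 and 0.34) and Spred1 (0.19 and 0.22) are filled on the right at 24 h in both genotypes, and Spry2 is filled on the left at both times.

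The study's own question is whether lines that make CA19-9 differ from those that cannot, and for these 10 genes no difference was detected. The response at 4 h in inducible minus that in negative lines lay between −0.1 (Spry1) and 0.18 (Dusp5) on the log2 scale, and at 24 h between −0.13 (Spry4) and 0.07 (Spry2), in edgeR with the block. It called 0 of 10 at either time (0.0182% and 0.0243% of all features), the unblocked fit called 0 as well (0.0121% at both times), and so did DESeq2 and limma-voom. Dusp5 at 4 h was the only difference with an unadjusted p under 0.05 in the blocked fit: the 4 h change was 0.05 ± 0.05 in inducible and −0.13 ± 0.06 in negative lines, a difference of 0.18 (95% interval 0.01 to 0.35, unadjusted p = 0.0381, adjusted p = 0.991). The data do not show that the genotypes respond alike. The intervals of the other differences ran from −0.32 to 0.52 at 4 h and from −0.43 to 0.33 at 24 h at their widest, so that a difference of 1.43-fold at 4 h (Phlda1) or a reduction to 0.74 of the negative response at 24 h (Spry4) lies within them. The narrowest interval was that of Spry2, −0.12 to 0.15 at 4 h and −0.06 to 0.2 at 24 h.

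**Figure D4:**
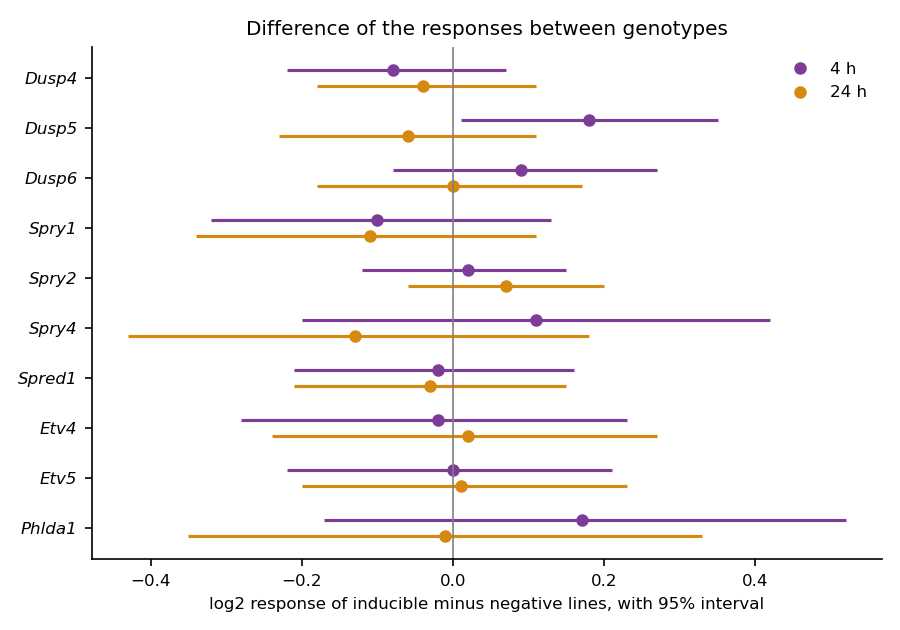
Log2 response of inducible minus that of negative lines for each feedback gene, at 4 h (purple) and 24 h (orange), from edgeR with the line as a block; bars are 95% intervals. The intervals include 0 except that of Dusp5 at 4 h (0.01 to 0.35), whose adjusted p was 0.991.

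Compared at one time, no difference between inducible and negative lines was detected in these genes. EdgeR called 0 of 10 at 0 h, 4 h and 24 h, when it called 0.0%, 0.0121% and 0.0121% of all features; DESeq2 and limma-voom with a random block for the line called 0. At an unadjusted p under 0.05 there was 1, Spry2 at 24 h (77.5 ± 8.64 CPM, SD, n = 3, against 67.3 ± 2.12 CPM, n = 2), with a log2 difference of 0.2 and an adjusted p of 0.863. The largest difference was that of Spry4 at 4 h, 7.52 ± 1.35 (SD, n = 3) against 5.91 ± 0.47 CPM (n = 2), which was 0.35 on the log2 scale with a 95% interval of −0.06 to 0.76 (adjusted p = 1.0 in edgeR). A225 was highest at 9.08 CPM, with A217 and A220 at 6.65 and 6.84 CPM and A218 and A223 at 5.58 and 6.24 CPM. Dusp6, the most abundant of the 10, differed by 0.01 at 0 h (95% interval −0.33 to 0.34). These comparisons are between lines, whose spread is wide: the interval of Dusp5 at 0 h was −0.44 to 0.48 around 0.02.

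The 10 genes did not move as a block. Over the 15 libraries, which share lines and times, the correlation of log2 CPM between 2 of them ranged from −0.77 (Spry1 and Spred1) to 0.7 (Dusp4 and Dusp5), with a median of 0.18 over the 45 pairs, of which 29 were above 0. After each gene was centred on its line mean, the range was −0.86 (Dusp6 and Spred1) to 0.82 (Dusp6 and Spry2) and the median 0.04. Within lines, Spred1 therefore ran opposite to Spry2 and Dusp6. The genes outside the list whose log2 CPM was most like the mean of the 10 standardised profiles were Slc40a1 (Pearson r = 0.942), Stbd1 (0.92), Pla2g7 (0.911), Lgals1 (0.907) and Phldb2 (0.904). With line means removed they included Acsl1 (0.914), Pdp1 (0.904), Grasp (0.899) and Meaf6 (0.894). These were among the highest of genes averaging 1 CPM or more, and describe these 15 libraries only. Among the 10 genes themselves the correlation with that mean, of which each is a part, ran from −0.117 (Spry1) to 0.852 (Dusp4).

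Of 13 other members of the same gene families, 12 were tested (Dusp2 did not pass the filter). In edgeR with the block, none was called in inducible lines at 4 h (4 at an unadjusted p under 0.05). In negative lines 1 was called at 4 h, Dusp1 as lower. These are 0.0% and 8.33% of the 12, against 3.05% and 2.04% of all features. At 24 h 1 was called as higher (Dusp1) and 1 as lower (Dusp9) in each genotype. That is 16.7% of the 12, against 24.2% and 22.5% of all features. Dusp1, an immediate early phosphatase that acts mainly on p38 and JNK, measured 16.4 ± 3.3 CPM at 0 h and 26.0 ± 7.04 CPM at 24 h in inducible lines (SD, n = 3), and 17.4 ± 1.49 and 27.8 ± 0.97 CPM in negative lines (n = 2). Its rise, 1.58-fold and 1.61-fold (adjusted p = 2.76e-05 and 9.67e-05 with the block), was larger than that of any of the 10 feedback genes. Dusp9, another cytoplasmic ERK phosphatase, changed by −0.22 ± 0.07 and −0.26 ± 0.09 on the log2 scale at 24 h, with adjusted p of 0.0409 and 0.0496. Without the block no gene of these families was called in either genotype, with 0 to 2 at an unadjusted p under 0.05. Over both genotypes at 24 h, edgeR without the block called 1 of 12 (8.33%, against 18.7% of all features). That gene was Dusp1, as higher (adjusted p = 0.0138).

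Upstream, all 28 receptors, adaptors, RAS proteins and kinases of the list were tested. With the block, 2 were called in inducible lines at 4 h, both lower, and 1 in negative lines, also lower; at 24 h there were 8 higher and 2 lower in inducible and 5 higher and 2 lower in negative lines. These are 35.7% and 25.0% of the 28 at 24 h, against 24.2% and 22.5% of all features, and 7.14% and 3.57% at 4 h, against 3.05% and 2.04%. Without the block edgeR called 0 of 28 in each of these, with 0 to 9 at an unadjusted p under 0.05. Over both genotypes at 24 h it called 4 of 28 without the block (14.3%, against 18.7% of all features), 3 higher and 1 lower. Among them were Fgfr3, Shc1 and Fgfr4 (adjusted p = 0.00863, 0.0143 and 0.0347). Fgfr2 did not pass there (adjusted p = 0.29). The changes were mostly small, with a median size of 0.08 at 24 h in inducible lines. Among the called genes Fgfr2, Fgfr3 and Fgfr4 had the largest changes. At 24 h in inducible lines Fgfr2 (−0.27) was close in size to Braf (0.26). Fgfr2, whose epithelial isoform binds FGF10, fell at 4 h (−0.31 ± 0.04 in inducible and −0.26 ± 0.04 in negative lines, adjusted p = 0.00033 and 0.00864) and was still lower at 24 h (−0.27 and −0.31). Fgfr4 fell at 4 h in inducible lines, from 13.0 ± 2.52 to 8.68 ± 1.0 CPM (log2 change −0.57, adjusted p = 0.00175); in negative lines the change was −0.36 (adjusted p = 0.0793). Fgfr3 rose at 24 h in both genotypes, 1.36-fold and 1.5-fold (adjusted p = 0.000916 and 0.000585). The adaptor Shc1 rose at 24 h as well (0.2 and 0.28), and the kinase Braf was called in inducible lines only by its own test (0.26, adjusted p = 0.00778), with a difference from negative lines of 0.18 that did not pass (adjusted p = 0.658).

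Of 23 other ERK-inducible genes, 22 were tested (Egr3 did not pass the filter). At 4 h edgeR with the block called 1 higher and 3 lower in inducible and 4 lower in negative lines; at 24 h it called 5 higher and 3 lower in inducible and 5 higher and 2 lower in negative lines. Those are 18.2% of the 22 in each genotype at 4 h (3.05% and 2.04% of all features) and 36.4% and 31.8% at 24 h (24.2% and 22.5%). Over both genotypes at 4 h, 7 were lower and 0 higher with the block (31.8%, against 8.67% of all features), and 1 was lower without it. Within a genotype the unblocked fit called only Myc at 4 h, in both genotypes, and Hbegf at 24 h in negative lines. The other calls within a genotype rest on the block. Over both genotypes at 24 h the unblocked fit called 3 of 22 (13.6%, against 18.7% of all features). These were Plaur and Hbegf as higher and Myc as lower (adjusted p = 0.014, 0.00354 and 0.0452 in edgeR). Myc, the growth-promoting transcription factor, had the largest fall: 72.4 ± 5.43 CPM at 0 h, 53.4 ± 3.29 CPM at 4 h and 67.2 ± 4.22 CPM at 24 h in inducible lines (SD, n = 3), and 76.1 ± 6.49, 51.1 ± 0.148 and 64.1 ± 3.76 CPM in negative lines (n = 2). Its 4 h change of −0.44 and −0.57 passed with the block (adjusted p = 5.13e-05 and 4.85e-05) and without it (0.0205 and 0.0207). Epha2, a receptor kinase, and Plaur, the urokinase receptor, were lower at 4 h in both genotypes (−0.28 and −0.3 for Epha2, −0.28 and −0.32 for Plaur), and Ccnd1, cyclin D1, in negative lines (−0.31, adjusted p = 0.0245). In inducible lines Ccnd1 changed by −0.13 at 4 h (adjusted p = 0.187 in edgeR with the block). Its difference between genotypes, 0.17, did not pass (unadjusted p = 0.0499, adjusted p = 0.991). Plaur was then higher at 24 h (0.23 and 0.45), as was Hbegf, an EGF receptor ligand (0.4 and 0.57, adjusted p = 0.000133 and 5.44e-05). At 24 h Emp1 changed by −0.41 in negative lines (adjusted p = 0.024) and −0.27 in inducible lines (adjusted p = 0.0539). Junb changed by 0.27 in negative (adjusted p = 0.00903) and 0.07 in inducible lines (adjusted p = 0.404), and Jun by −0.22 in inducible (adjusted p = 0.0462) and 0.13 in negative lines (adjusted p = 0.357). The difference between genotypes did not pass for any of them: 0.13 for Emp1 (adjusted p = 0.866), −0.2 for Junb (unadjusted p = 0.0298, adjusted p = 0.583) and −0.35 for Jun (unadjusted p = 0.0109, adjusted p = 0.547).

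The immediate early gene Egr1 and the EGF receptor ligand Areg passed in inducible and not in negative lines with the block, and in neither without it (adjusted p in inducible lines 0.828 for Areg at 4 h and 0.509 for Egr1 at 24 h). Areg measured 62.9 ± 15.2 CPM at 0 h and 78.9 ± 14.6 CPM at 4 h there (log2 change 0.34, adjusted p = 0.0495 in edgeR with the block), against 0.04 in negative lines. Egr1 rose by 0.27 at 24 h in inducible lines (adjusted p = 0.0413 in edgeR with the block), against 0.03 in negative lines. Its mean went from 20.4 ± 5.36 to 24.5 ± 6.73 CPM (SD, n = 3) in inducible lines. In negative lines it was higher at both times, at 25.4 ± 3.07 and 26.1 ± 6.16 CPM (n = 2). The difference between the genotypes did not pass for either gene: 0.3 for Areg at 4 h (unadjusted p = 0.0435, adjusted p = 0.991) and 0.24 for Egr1 at 24 h (adjusted p = 0.685). For Egr1 at 4 h it was 0.38 and did not pass (unadjusted p = 0.0166, adjusted p = 0.991 in edgeR with the block). No gene of the 3 pathway lists was called for a difference of responses in edgeR with or without the block, with 0 to 4 genes per list at an unadjusted p under 0.05.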

How the data were processed

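RNA was sequenced from 15 organoid libraries, 1 per line and time. Ribosomal RNA was depleted before paired-end libraries were made, per the labels' protocols. The submitters' processing notes name kallisto 0.43.1, GRCm38, DESeq2 1.18.1 and DESeq as used by the authors. The deposited files hold estimated counts per transcript, not normalised, and TPM, which total 1000000 in each library. The annotation release, and whether strand was used in counting, are not given in the sources used here. It is therefore not known whether antisense genes that overlap were told apart.

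Estimated counts were summed per gene with GENCODE M21 (109304 transcripts, of which 1295 without a match held 0.556 to 0.593% of counts) and rounded. EdgeR 4.0.16 in R 4.3.3 (quasi-likelihood F test, TMM, default expression filter) was fitted to 15 libraries with a mean for each of the 6 groups; Benjamini-Hochberg adjustment ran over 16462 features, with calls below 0.05. CPM are TMM-scaled. Standard errors were derived from the fold change and F, and intervals are 95%. Labels name the same line at every time, so lines pair libraries: deviations from group means correlated at 0.381 to 0.476 in inducible and 0.238 to 0.285 in negative lines. A fit with a replicate block for the line is therefore given beside the unblocked one. P-values of the unblocked fit rest on the spread between lines (9 residual degrees of freedom) and those of the blocked fit on the spread left within lines over the times (6); both describe these lines, and part of the spread may be technical. Libraries of a group differed by more than sampling noise, so none was counted as a copy. Other settings were limma-voom 3.58.1 with a random block for the line, DESeq2 1.42.0, median-of-ratios scaling, other filters and leaving out libraries or lines. Scripts were tested on simulated data. The members and gene lists were chosen with earlier results of these data known. Named besides the 10 genes are up to 4 genes per pathway list and comparison that passed with or without the block, by size of change, and the 5 genes most like them; 1 gene that this rule names is not reported here.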

Additional observations from a re-analysis of the deposited data

How the results depend on the processing

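Without the block, the 9 planned comparisons gave 0 calls among the 10 genes, and this held under DESeq2, median-of-ratios scaling, either filter and with each library left out (lowest and highest 0). The replicate block moved the counts: edgeR with the line as a block called 2 genes in inducible lines at 4 h and 4 at 24 h, 1 in negative lines at 4 h and 3 at 24 h; limma-voom with a random block called 1, 1, 0 and 1. Over both genotypes the block gave 5 calls at 4 h, 4 at 24 h and 4 between 4 h and 24 h, and limma-voom 3, 3 and 2. Without the block, DESeq2 called 2 at 24 h over both genotypes and a filter of 1 CPM in 3 libraries called 1, against 0. Of all 16462 features, limma-voom called 273 and 3399 in inducible lines at 4 h and 24 h and 163 and 3135 in negative lines. Over both genotypes it called 1033 at 4 h, 5585 at 24 h and 5719 between 4 h and 24 h. At 24 h over both genotypes DESeq2 called 3678 of 25016 features, and edgeR with the 1 CPM filter 3140 of 12609. With 1 line left out, the blocked counts ran from 0 to 2 (inducible, 4 h), 1 to 4 (inducible, 24 h), 0 to 0 (negative, 4 h), 1 to 4 (negative, 24 h), 2 to 4 (both, 4 h), 3 to 5 (both, 24 h) and 2 to 4 (24 h against 4 h); leaving out a line also leaves fewer libraries. With 1 library left out the unblocked counts over both genotypes ran from 0 to 2 at 24 h and from 0 to 2 between 4 h and 24 h. Dusp4, the 1 unblocked call, was lost without the 4 h library of A217, A218 or A223 or the 24 h library of A218 or A223; where this leaves 1 negative library at a time, it is assumed to vary like the other groups. Over the 120 changes of single genes, other settings moved a log2 change by at most 0.027 and a left-out library by at most 0.267. Other settings gave 11 sign changes, in changes of at most 0.021 in size in the unblocked fit. Leaving out a library changed the sign of 55 of the 120, so the direction of many small changes is not settled. None of the called changes reversed, but the unblocked fit called only that of Dusp4. Genotypes at 1 time could not be fitted with a fixed line block, since each line has 1 genotype; the random block called 0.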
